A study of Rattus norvegicus albus with 14 samples.

Results

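Transcripts for the subunits of oxidative phosphorylation, from both the nuclear and the mitochondrial genome, were followed in neonatal rat ventricular myocytes over an exposure to rosiglitazone. Genes were chosen by name: the symbol had to start as the subunits of complexes I to V do (Nduf, Sdh, Uqcr, Cox4 to Cox8, Atp5) or carry the Mt- prefix of a protein gene of the mitochondrial genome, and the gene had to have counts above 0 in all 3 libraries of 0.5 h. Of 32545 genes in the deposited tables, 102 matched by name and 92 met the count rule. Nuclear genes made up 80 of them, with 35 in complex I, 4 in complex II, 9 in complex III, 16 in complex IV and 16 in complex V. The other 12 were mitochondrially encoded, with 6 in complex I, 1 in complex III, 3 in complex IV and 2 in complex V.

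Oxidative phosphorylation is the pathway by which mitochondria turn the electrons of NADH and succinate into ATP. Complex I and complex II pass electrons to coenzyme Q, complex III passes them on to cytochrome c, and complex IV hands them to oxygen. Complexes I, III and IV pump protons, and complex V, the ATP synthase, uses the proton gradient to make ATP. Most subunits are encoded in the nucleus and imported, while a few hydrophobic core subunits are encoded in mitochondrial DNA, so complexes I, III, IV and V need products of both genomes. The heart depends on this pathway for most of its ATP, and heart muscle uses tissue-specific isoforms of several complex IV subunits.

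The cells were ventricular myocytes of 1-day-old Harlan Sprague-Dawley rats, pooled after isolation and preplated to remove fibroblasts. The vehicle group received 1% DMSO for 0.5 h and is 1 library. The other 3 groups received 10 µmol/L rosiglitazone, a thiazolidinedione that activates the nuclear receptor PPARγ, in 1% DMSO for 0.5, 24 or 48 h, with 2 libraries each. DMSO was thus present in every group. Vehicle libraries of 24 or 48 h were not analysed here, and the effects of the drug and of longer culture therefore cannot be told apart. Whether the 2 libraries of a group are separate cultures is not stated in the labels, and the p-values reflect only how far these libraries spread, and that spread may be technical.

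Total counts ranged from 10886559 in 48 h replicate 2 to 28074620. All 19 cardiomyocyte markers were above 0 in every library, but their summed level was 10118 to 18146 CPM (read counts scaled to library size) in the 3 libraries of 0.5 h and 447 and 1980 CPM in those of 48 h. The 11 fibroblast markers summed to between 17438 and 52698 CPM, and all but Thy1 were above 0 in every library. The pair of 24 h differed most: 4808 of 15655 genes differed by more than 2-fold between them, against 876 at 0.5 h and 2624 at 48 h. Cardiomyocyte markers summed to 15598 CPM in replicate 1 of 24 h and 3692 CPM in replicate 2, so medians and counts that use the 24 h group are also given without one or the other. In bulk RNA, fewer cells of a type and less RNA per cell cannot be told apart.

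Of the 10 genes that matched by name and were left out, 5 were listed at 0 in all 7 libraries. These were Mt-nd4, the ND4 subunit of complex I, and the nuclear genes Ndufa1, Cox7b2, Cox8c and Cox6c-ps1. Mt-nd4 overlaps Mt-nd4l, which holds 114 to 2697 counts per library, and whether the counting of reads shared by overlapping genes set the 0 of Mt-nd4 was not tested, so that 0 is not read as a level. For the nuclear genes, by counting error alone, a count of 0 allows up to 3 counts. That is from 0.107 CPM at the greatest depth to 0.276 CPM at the lowest. How reads shared with other genes or copies were counted is not given for them either. Their zeros, and the low counts that follow, are therefore not read as absence of the transcript. Cox7a1, the heart and skeletal muscle isoform of COX7A, had 3 counts in rosiglitazone 0.5 h replicate 1, 25 in 24 h replicate 1 and 0 in the other 5 libraries. Atp5f1, subunit b of the ATP synthase, had 23 counts in 24 h replicate 2 and 0 elsewhere. Another 3 genes, Ndufs6, Ndufa13 and Ndufb4l1, reached at most 15 counts in a library.

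All 92 subunits passed the filter on low counts. They carry 89 symbols, because Cox6b1, Uqcrb and Ndufv3 each have a further gene ID in the tables, named here as a copy. Near-identical copies can share reads, and how the counting split such reads is not given in the sources used here, so values of these 3 pairs are uncertain. The same holds for Mt-atp8 and Mt-nd4l, which overlap Mt-atp6 and Mt-nd4 on the mitochondrial genome. Cox7a2l, Ndufa4l2, Atp5s and Atp5sl match by name, but are a supercomplex factor, a paralog of Ndufa4 and 2 proteins outside the classical subunit set. Levels are given per library and are not compared between genes, since the counts are not per length.

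Summed over the 80 nuclear genes, the level was 14112 CPM in the DMSO library and 14443 and 18671 CPM in the rosiglitazone libraries of 0.5 h. It was 29459 and 13071 CPM at 24 h, and 11375 and 16459 CPM at 48 h, so the 48 h libraries overlapped those of 0.5 h. The 12 mitochondrially encoded genes summed to 21176 CPM in DMSO and to 22546 and 20307 CPM with rosiglitazone for 0.5 h. They then stood at 34965 and 7622 CPM at 24 h and at 8966 and 6008 CPM at 48 h. Both 48 h libraries and replicate 2 of 24 h were thus below all 3 libraries of 0.5 h for the mitochondrial genome, while replicate 1 of 24 h was the highest library for both genomes. Group means ± SD (n = 2) were 21427 ± 1583 CPM at 0.5 h and 7487 ± 2091 CPM at 48 h for the mitochondrially encoded genes, and 16557 ± 2990 and 13917 ± 3595 CPM for the nuclear ones.

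A share within a library does not depend on how libraries are scaled. Mitochondrially encoded genes held 60.01% of all subunit counts in DMSO (95% exact binomial interval 59.9 to 60.1%) and 60.95% and 52.1% with rosiglitazone for 0.5 h. The share was 54.3% and 36.8% at 24 h and 44.1% and 26.7% at 48 h. Group means ± SD were 56.5 ± 6.26% at 0.5 h, 45.6 ± 12.3% at 24 h and 35.4 ± 12.3% at 48 h (n = 2 each). The 48 h libraries lay below the 3 libraries of 0.5 h, but 2 libraries against 2 cannot reach a two-sided exact permutation p below 0.333, so the shift carries no test. Intervals and floors cover counting error alone, because no molecular identifiers are described.

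**Figure D1:**
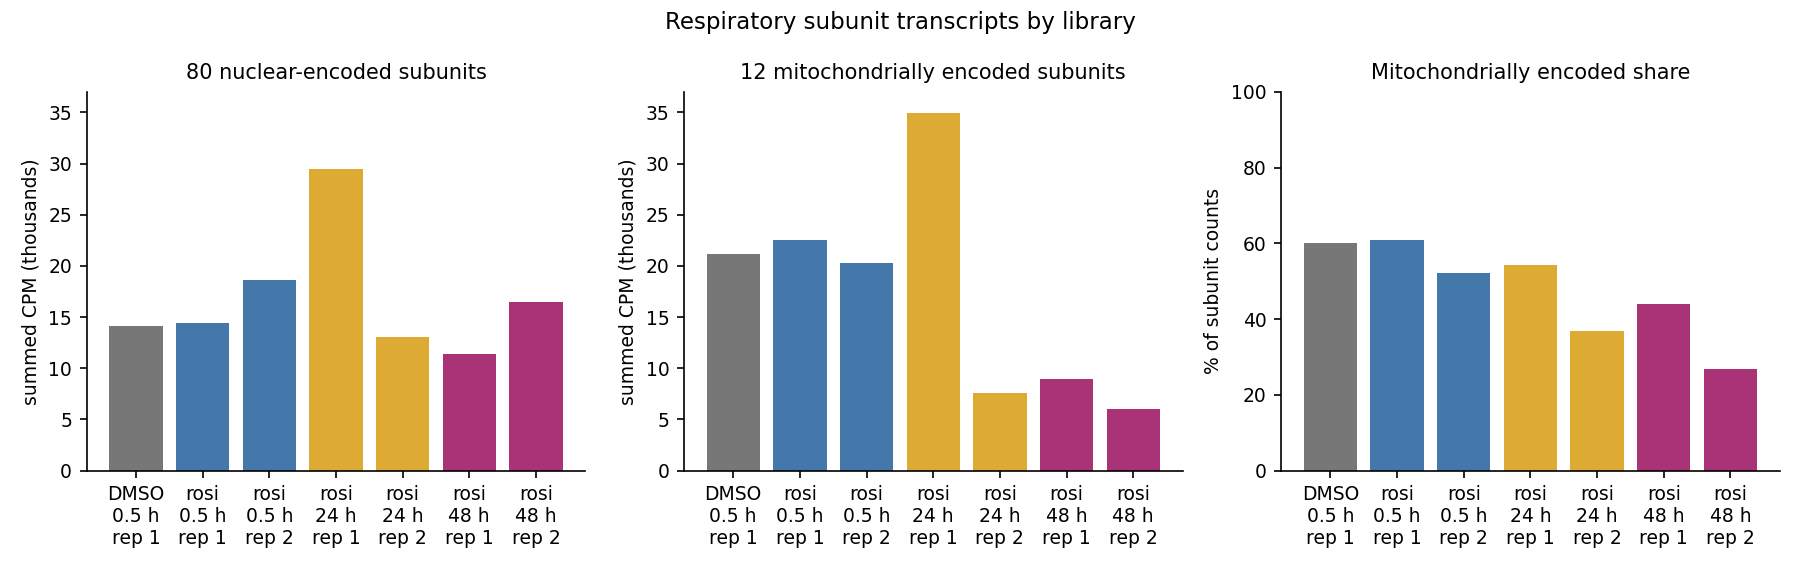
Summed CPM of the 80 nuclear and the 12 mitochondrially encoded subunit transcripts in each of the 7 libraries, and the mitochondrially encoded share of subunit counts in percent. Bars are single libraries, coloured by group. The mitochondrially encoded sum stands between 20307 and 22546 CPM in the 0.5 h libraries and between 6008 and 8966 CPM in those of 48 h, and replicate 1 of 24 h is the highest bar for both genomes.

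In each complex with subunits of both genomes the mitochondrially encoded share was lower at 48 h. For complex IV, mitochondrially encoded genes held 81.8, 82.8 and 76.5% of the complex's counts in the 3 libraries of 0.5 h and 69.3 and 53.7% at 48 h. For complex I the corresponding values were 64.4, 62.1 and 52.3%, and 41.4 and 20.3%. For complex III they were 59.5, 60.7 and 50.4%, and 26.55 and 11.03%. For complex V they were 33.65, 34.98 and 28.3%, and 17.9 and 7.34%. In every complex both 48 h libraries were below the 3 of 0.5 h, and replicate 2 was the lower of the pair.

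The widest contrast in time was between 48 h and 0.5 h of rosiglitazone. All 12 mitochondrially encoded transcripts were lower in both 48 h libraries than in both libraries of 0.5 h, with a median log2 fold change of -2.01, a 4.03-fold lower level. The 80 nuclear transcripts had a median of -0.26, with 30 positive and 50 negative fold changes, and all genes tested had a median of -0.10. Of the 92 subunits, 2 passed the threshold by edgeR's quasi-likelihood test (Benjamini-Hochberg adjusted p under 0.05): Cox7a2l was higher and Mt-nd4l was lower. Across all genes, 6.6% were called in this comparison, 1.84% higher and 4.77% lower. Groups that did not overlap were found for 35.5% of all genes in the lower direction and 26.9% in the higher, against 32 and 4 of the 80 nuclear subunits and 12 and 0 of the 12 mitochondrially encoded ones. At an unadjusted p under 0.05 there were 1 higher and 10 lower subunits, against 8.85% and 13.7% of all genes.

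The number called varied with the fit. DESeq2 called 11 subunits, against 16.3% of all genes, and edgeR on the 2 groups alone called 16, against 19.3%. With no filter on low counts edgeR called 4, against 6.83% of all genes. Without rosiglitazone 0.5 h replicate 1 or replicate 2, or 48 h replicate 1 or replicate 2, edgeR called 0 subunits, against 0.228%, 0.843%, 0.0773% and 2.75% of all genes. Without the DMSO library it called 1, against 5.99%, and without replicate 1 or replicate 2 of 24 h it called 16 and 17, against 17.6% and 17.5%. Of the 11 subunits called by DESeq2, 8 were mitochondrially encoded and lower.

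Mt-nd4l encodes ND4L, a small core subunit of the membrane arm of complex I. Its transcript was at 79.2 CPM in DMSO, 96.8 and 59.8 CPM after 0.5 h of rosiglitazone, 41.2 and 19.3 CPM at 24 h and 22.2 and 10.4 CPM at 48 h. Every later library was below the 3 libraries of 0.5 h. The log2 fold change of 48 h against 0.5 h was -2.25 ± 0.53 (SE), 4.77-fold lower, with an edgeR adjusted p of 0.0497. This call sat at the threshold, and it was lost without the DMSO library (adjusted p = 0.0608) or without any 1 rosiglitazone library of 0.5 or 48 h (adjusted p from 0.117 to 0.269).

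Mt-atp8 encodes subunit 8 of the ATP synthase. Its level was 67.4 CPM in DMSO, 66.4 and 51.3 CPM at 0.5 h, 35.4 and 13.1 CPM at 24 h and 15.7 and 11.2 CPM at 48 h. Its order over time was that of Mt-nd4l, with no overlap between 0.5 h and either later time, and the adjusted p of 48 h against 0.5 h by edgeR was 0.0504 (log2 fold change -2.12 ± 0.50), just outside the threshold.

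Among the mitochondrially encoded transcripts, Mt-cyb had the lowest log2 fold change. It encodes cytochrome b, the only subunit of complex III made in the mitochondrion, and stood at 2000 CPM in DMSO, 2159 and 1767 CPM at 0.5 h, 2500 and 321 CPM at 24 h and 402 and 197 CPM at 48 h. The 48 h level was 6.55-fold lower than that of 0.5 h (log2 fold change -2.71 ± 0.86), and the edgeR adjusted p was 0.112.

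Mt-atp6, which encodes the proton channel subunit of complex V, was at 3519 and 3362 CPM at 0.5 h, 5030 and 879 CPM at 24 h and 962 and 498 CPM at 48 h (log2 fold change of 48 h against 0.5 h -2.24 ± 0.75). The DMSO library was at 3294 CPM. In complex IV, Mt-co2, which encodes the subunit that accepts electrons from cytochrome c, was at 3132 CPM in DMSO, 3241 and 3016 CPM at 0.5 h, 6015 and 987 CPM at 24 h and 823 and 924 CPM at 48 h (-1.84 ± 0.72). Mt-cox3, the third core subunit, had 2267, 2334, 2394, 3481, 612, 683 and 414 CPM in the same order of libraries (-2.11 ± 0.73). In all 3 genes the 48 h libraries and replicate 2 of 24 h formed a low set and the other 4 libraries a high one.

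Mt-co1 encodes the catalytic subunit of complex IV, which holds the site where oxygen is reduced. It was at 4962 CPM in DMSO, 6122 and 5408 CPM at 0.5 h, 11398 and 3596 CPM at 24 h and 4209 and 2948 CPM at 48 h. Both 48 h values were below all 3 of 0.5 h, but the log2 fold change of -0.69 ± 0.53 was the least negative of the 12 (edgeR adjusted p = 0.493).

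The other mitochondrially encoded members belong to the membrane arm of complex I. Mt-nd1 was at 1484 CPM in DMSO, 1418 and 1087 CPM at 0.5 h, 1938 and 352 CPM at 24 h and 553 and 354 CPM at 48 h. Mt-nd2 was at 2012, 1769 and 1530 CPM at 0.5 h, the DMSO library first, at 2175 and 267 CPM at 24 h and at 626 and 230 CPM at 48 h. Mt-nd3 was at 436, 364 and 532 CPM, then at 747 and 125 CPM and last at 109 and 104 CPM. These genes and Mt-nd5 and Mt-nd6 had log2 fold changes of 48 h against 0.5 h between -2.07 (Mt-nd3) and -1.44 (Mt-nd6), none of which passed the threshold. Mt-nd5 was lower at both later times without overlap, at 957 CPM in DMSO, 1012 and 716 CPM at 0.5 h, 689 and 337 CPM at 24 h and 368 and 207 CPM at 48 h. Mt-nd6, encoded on the opposite strand to the other genes, was at 486 CPM in DMSO, 444 and 383 CPM at 0.5 h, 916 and 114 CPM at 24 h and 193 and 112 CPM at 48 h.

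**Figure D2:**
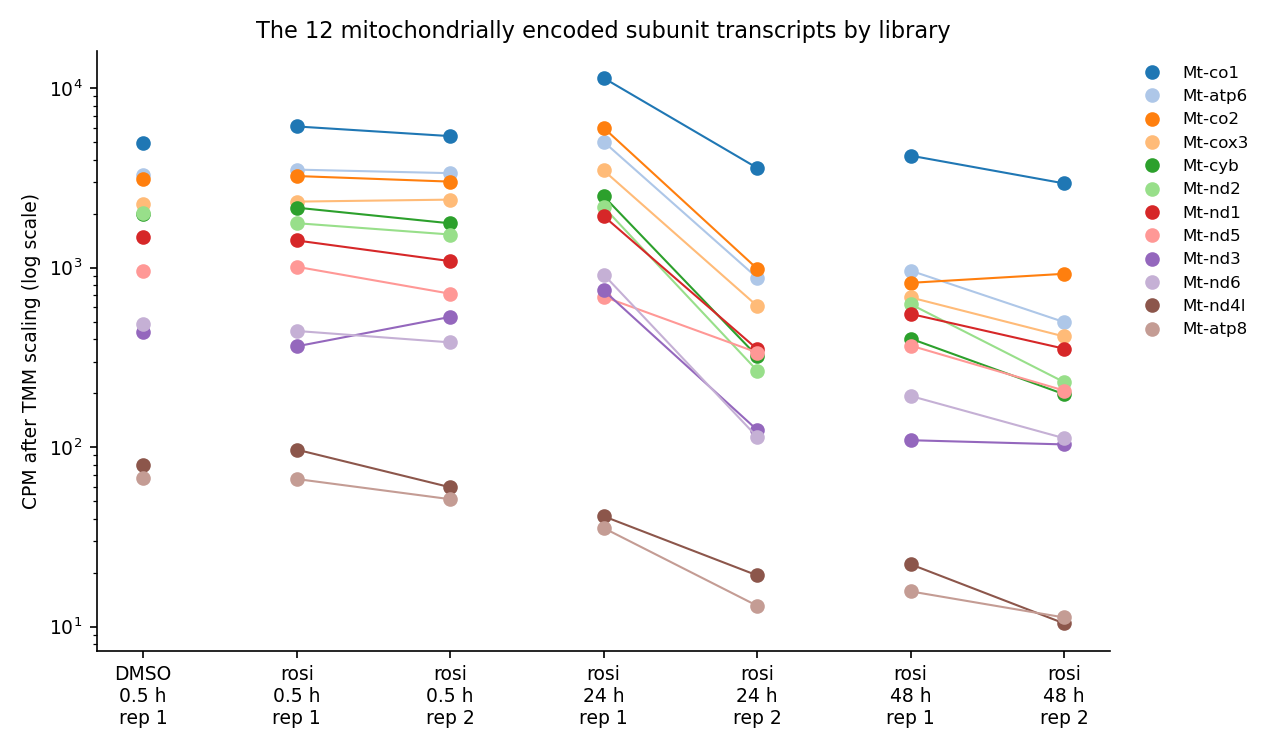
Level of each of the 12 mitochondrially encoded subunit transcripts in the 7 libraries, in CPM on a log axis. Points are single libraries, and a line joins the 2 libraries of a group. Both 48 h libraries are below both rosiglitazone libraries of 0.5 h for every gene, and the 24 h lines run steeply between a high and a low library, as for Mt-cyb at 2500 and 321 CPM.

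The mitochondrially encoded counts also differed in composition. Mt-co1 made up 23.4% of the counts of the 12 genes in DMSO, 27.2% and 26.6% at 0.5 h, 32.6% and 47.2% at 24 h and 46.9% and 49.1% at 48 h. Its mean share ± SD was 26.9 ± 0.369% at 0.5 h of rosiglitazone, 39.9 ± 10.3% at 24 h and 48.0 ± 1.503% at 48 h (n = 2 each). An SD from 2 libraries is a poor measure of spread, and this shift carries no test. The share of Mt-cyb was 9.44% in DMSO, 9.58% and 8.70% at 0.5 h, 7.15% and 4.22% at 24 h and 4.49% and 3.28% at 48 h. Mt-atp6 held 15.6, 15.6 and 16.6% of these counts in the libraries of 0.5 h, 14.4 and 11.5% at 24 h and 10.7 and 8.28% at 48 h. In these 3 shares replicate 2 of 24 h was closer to the 48 h libraries than replicate 1 of 24 h was. With Mt-co1 left out of numerator and denominator, the mitochondrially encoded share of subunit counts was 53.5, 53.2 and 44.4% at 0.5 h and 29.5 and 15.7% at 48 h.

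**Figure D3:**
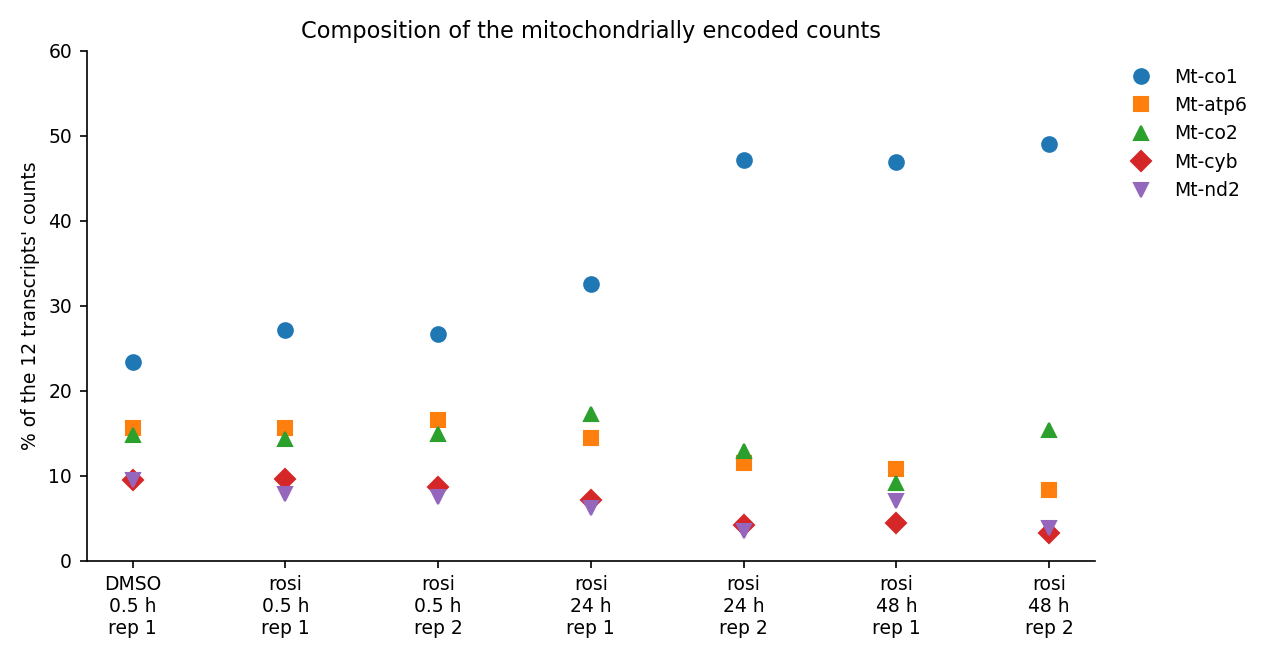
Share of the summed counts of the 12 mitochondrially encoded transcripts held by 5 of them, in percent, for each library. Points are single libraries. Mt-co1 lies between 23.4 and 27.2% in the 3 libraries of 0.5 h, at 32.6% in replicate 1 of 24 h and between 46.9 and 49.1% in the other later libraries, and Mt-cyb and Mt-atp6 are lower there.

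Reads of nuclear copies of mitochondrial DNA can be shared with these genes, and how such reads were counted is not given in the sources used here. The cardiomyocyte markers were lower at 48 h as well: 14 of 19 passed the threshold in the lower direction, against 4.77% of all genes, and their median log2 fold change was -4.38. All 4 genes of creatine kinases and myoglobin, carriers of energy and oxygen in muscle, had negative fold changes. Of these 4, 3 passed the threshold as lower, among them Ckmt2, which had 0 counts in both 48 h libraries. Among other cell types, 4 of 10 smooth muscle and pericyte markers, 4 of 8 endothelial markers and 3 of 12 macrophage markers passed as lower. Of the 11 fibroblast markers 1 passed as higher, against 1.84% of all genes, and 0 of 6 red blood cell markers passed. The fibroblast markers had a median log2 fold change of -1.32, with 3 positive and 8 negative. In the 3 libraries of 0.5 h and in the 2 of 48 h, the sums were 4266 to 5249 and 415 to 1079 CPM for smooth muscle and pericytes, 386 to 436 and 197 to 209 CPM for endothelium, 306 to 1032 and 207 to 386 CPM for macrophages and 51840 to 52698 and 17438 to 33288 CPM for fibroblasts. Red blood cell markers summed to 83.7 to 281 CPM and then to 112 and 254 CPM. Cldn5 had 0 counts in every library, Epb42 and Ahsp in all 4 libraries of 24 and 48 h, Rgs5 in 24 h replicate 2 and 48 h replicate 1, Cd163 and Slc4a1 in both libraries of 24 h, and Vwf, Adgre1 and Thy1 in 24 h replicate 2. The part of cell composition in the level of the subunit transcripts was not tested.

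The fold changes of the nuclear subunits were closer to 0. Complex I had a median log2 fold change of -0.05 over its 35 nuclear genes for 48 h against 0.5 h, with 17 positive and 18 negative. The 7 nuclear core subunits, which carry the flavin and iron-sulphur clusters or bind coenzyme Q, had a median of -0.28, and the 28 accessory subunits 0.05. Ndufs1, the largest core subunit, was at 255 CPM in DMSO, 298 and 309 CPM at 0.5 h, 351 and 285 CPM at 24 h and 233 and 278 CPM at 48 h (log2 fold change -0.25 ± 0.26). Ndufv1, which binds NADH, was at 194, 210 and 229 CPM in the 0.5 h libraries and at 149 and 208 CPM at 48 h (-0.30 ± 0.34). Both 48 h libraries were below both rosiglitazone libraries of 0.5 h for these genes, with edgeR adjusted p of 0.626 and 0.650.

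Within complex I, the nuclear fold changes ran from -1.38 ± 0.62 for Ndufa12 to 0.82 ± 0.49 for Ndufa6, both accessory subunits. Ndufa12 was at 6.81 CPM in DMSO, 9.91 and 13.3 CPM at 0.5 h, 29.1 and 8.80 CPM at 24 h and 3.81 and 5.12 CPM at 48 h. Ndufa6 was at 68.3 CPM in DMSO, 66.8 and 97.5 CPM at 0.5 h, 267 and 100.3 CPM at 24 h and 112 and 178 CPM at 48 h. Neither passed the threshold (edgeR adjusted p = 0.242 and 0.372), although the libraries of 0.5 and 48 h did not overlap for either gene.

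Complex II, the succinate dehydrogenase, is encoded in the nucleus alone. Its 4 genes had log2 fold changes from -0.61 (Sdha) to -0.25 (Sdhb), with a median of -0.45. Sdha, the flavoprotein, was at 291 CPM in DMSO, 326 and 383 CPM at 0.5 h, 421 and 247 CPM at 24 h and 199 and 265 CPM at 48 h. Sdhb, the iron-sulphur subunit, was at 110 CPM in DMSO, 130 and 153 CPM at 0.5 h, 193 and 117 CPM at 24 h and 115 and 123 CPM at 48 h. Both genes were below the rosiglitazone libraries of 0.5 h at 48 h, with Sdhb still above the DMSO library, and neither passed the threshold (edgeR adjusted p = 0.335 and 0.679).

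In complex III the 9 nuclear genes had a median of -0.40. Uqcrc2, a core protein of the matrix arm, had the most negative value of them (log2 fold change -1.04 ± 0.29, 2.05-fold lower, edgeR adjusted p = 0.0828). It was at 259 CPM in DMSO, 275 and 293 CPM at 0.5 h, 279 and 186 CPM at 24 h and 152 and 125 CPM at 48 h. Its partner Uqcrc1 was at 267, 286 and 349 CPM in the 0.5 h libraries and at 232 and 249 CPM at 48 h (-0.40 ± 0.35). Uqcrfs1, the Rieske iron-sulphur protein that carries electrons to cytochrome c1, was at 328, 329 and 408 CPM and then at 325 and 546 CPM (0.24 ± 0.44). Thus 1 of the 3 core and Rieske subunits had a positive fold change and 2 a negative one.

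The catalytic F1 head of complex V had a median of -0.40 over 5 genes. Atp5b, the catalytic beta subunit, was at 2626 CPM in DMSO, 2649 and 3321 CPM at 0.5 h, 3868 and 2262 CPM at 24 h and 1622 and 2134 CPM at 48 h (log2 fold change -0.67 ± 0.37). Atp5a1, the alpha subunit, was at 1296 CPM in DMSO, 1294 and 1712 CPM at 0.5 h, 1724 and 921 CPM at 24 h and 726 and 1029 CPM at 48 h (-0.78 ± 0.39). Both 48 h libraries lay below all 3 of 0.5 h for these 2 genes, and the edgeR adjusted p values were 0.335 and 0.294.

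The other parts of the ATP synthase had medians of -0.68 for the 3 paralogs of the rotating c-ring, -0.17 for the 3 peripheral stalk subunits and -0.64 for 3 accessory subunits of the membrane part. The extremes were Atp5j2, subunit f of the membrane part (-0.99 ± 0.56), and Atp5h, subunit d of the stalk (0.47 ± 0.46). Atp5j2 was at 141, 154 and 203 CPM in the 0.5 h libraries and at 67.7 and 112 CPM at 48 h. Atp5h was at 296, 304 and 417 CPM and then at 405 and 594 CPM, with overlap. None of the 16 genes of complex V passed the threshold.

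Complex IV had a median of -0.14 over its 16 nuclear genes, and the 10 ubiquitous subunits among them -0.02. Cox5a, which lies on the matrix side of the complex, was at 183 CPM in DMSO, 183 and 241 CPM at 0.5 h, 485 and 266 CPM at 24 h and 165 and 256 CPM at 48 h (log2 fold change of 48 h against 0.5 h -0.01 ± 0.38). Cox4i1, which binds adenine nucleotides, was at 474 CPM in DMSO, 529 and 832 CPM at 0.5 h, 1255 and 667 CPM at 24 h and 632 and 1024 CPM at 48 h (0.28 ± 0.43). In both genes the 48 h values overlapped those of 0.5 h.

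**Figure D4:**
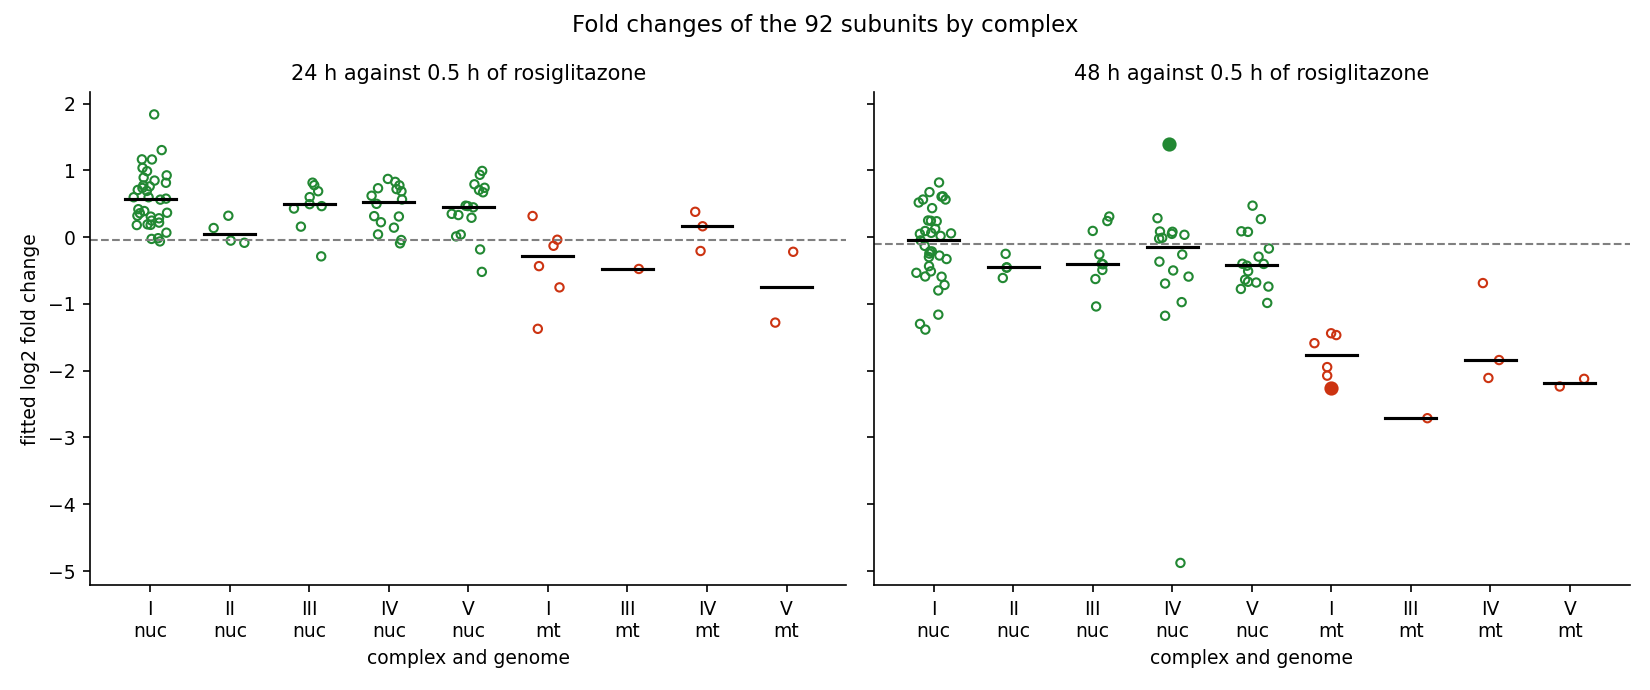
Fitted log2 fold change of each of the 92 subunits by complex and genome (nuc, nuclear; mt, mitochondrially encoded), for 24 h and for 48 h against 0.5 h of rosiglitazone. Open points are genes that did not pass the threshold, filled points those that did, black bars the medians, and the dashed line the median of all genes tested. At 48 h the mitochondrially encoded genes lie between -2.71 and -0.69, Cox7a2l is the filled point at 1.39, Mt-nd4l the one at -2.25, and Cox8b is the lowest point at -4.88.

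The nuclear gene that passed the threshold was Cox7a2l, also known as a factor that joins complexes III and IV into supercomplexes. Its transcript was at 186 CPM in DMSO, 179 and 244 CPM at 0.5 h, 458 and 317 CPM at 24 h and 548 and 566 CPM at 48 h. Each later library was above every library of 0.5 h, and the 48 h libraries were above those of 24 h. The group means ± SD were 211.8 ± 45.7 CPM at 0.5 h and 556.7 ± 12.8 CPM at 48 h (n = 2), a log2 fold change of 1.39 ± 0.31 and a 2.63-fold rise (edgeR adjusted p = 0.0430). The log2 fold change was 1.19 without rosiglitazone 0.5 h replicate 1, where the call was lost (adjusted p = 0.370). It was also lost without rosiglitazone 0.5 h replicate 2, 48 h replicate 1 or 48 h replicate 2 (adjusted p = 0.170, 0.167 and 0.131).

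Complexes took different shares of the nuclear subunit counts over time. Complex IV held 16.3% in DMSO, 16.8% and 17.8% at 0.5 h, 20.75% and 18.85% at 24 h and 22.2% and 22.5% at 48 h. With Cox7a2l left out, its share was 15.2, 15.7 and 16.8% in the libraries of 0.5 h and 18.3 and 19.7% at 48 h, so the 48 h libraries still stood above. Complex V held 46.98% in DMSO, 46.15% and 46.2% at 0.5 h, 41.9% and 43.4% at 24 h and 39.5% and 39.0% at 48 h. Complex I held 21.0 to 21.6% in the 3 libraries of 0.5 h and 23.3 to 24.2% in the 4 later ones, and complex II 5.62 to 5.80% and then 4.36 to 5.25%. In complexes I, II, IV and V the shares of the 0.5 h libraries thus stood apart from those of all later ones. Complex III ranged over the 7 libraries from 9.09 to 9.79%.

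Complex IV has subunit pairs in which one isoform is made mainly in heart and skeletal muscle and the other in most tissues. Cox8b, the muscle isoform of COX8 in rodents, was at 25.8 CPM in DMSO, 30.2 and 44.5 CPM at 0.5 h, 116 and 6.68 CPM at 24 h and 0.979 and 1.64 CPM at 48 h. The 48 h libraries hold 27 and 18 counts of it. Its log2 fold change of -4.88 ± 1.23 for 48 h against 0.5 h was the most negative of the 92, with no overlap, but the edgeR adjusted p was 0.0605. DESeq2 gave it an adjusted p of 1.18e-05, and over all other alternatives its adjusted p ranged from 0.000271 to 0.296. The ubiquitous isoform Cox8a was at 94.0 CPM in DMSO, 110 and 152 CPM at 0.5 h, 185 and 103 CPM at 24 h and 109 and 149 CPM at 48 h (-0.02 ± 0.36).

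As a share of the counts of both COX8 isoforms, Cox8b was 21.6% in DMSO (95% exact binomial interval 20.2 to 22.98%), 21.6% and 22.7% at 0.5 h, 38.6% and 6.07% at 24 h, and 0.890% (0.587 to 1.29%) and 1.09% (0.650 to 1.72%) at 48 h. The 2 libraries of 24 h thus stood on opposite sides of the libraries of 0.5 h.

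Cox6a2, the muscle isoform of COX6A, was at 161 CPM in DMSO, 174 and 234 CPM at 0.5 h, 519 and 180 CPM at 24 h and 124 and 217 CPM at 48 h (log2 fold change -0.26 ± 0.51). The ubiquitous Cox6a1 was at 197, 198 and 236 CPM in the 0.5 h libraries, 567 and 154 CPM at 24 h and 185 and 274 CPM at 48 h (0.08 ± 0.55). Cox6a2 held 44.95% of the pair's counts in DMSO, 46.8% and 49.9% at 0.5 h, 47.8% and 53.9% at 24 h and 40.2% and 44.2% at 48 h. The cardiomyocyte markers had a median log2 fold change of -4.38 and ran from -5.97 to -0.69. Whether either isoform gene follows the markers was not tested. The difference between the fold changes of the 2 isoform genes was not tested.

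**Figure D5:**
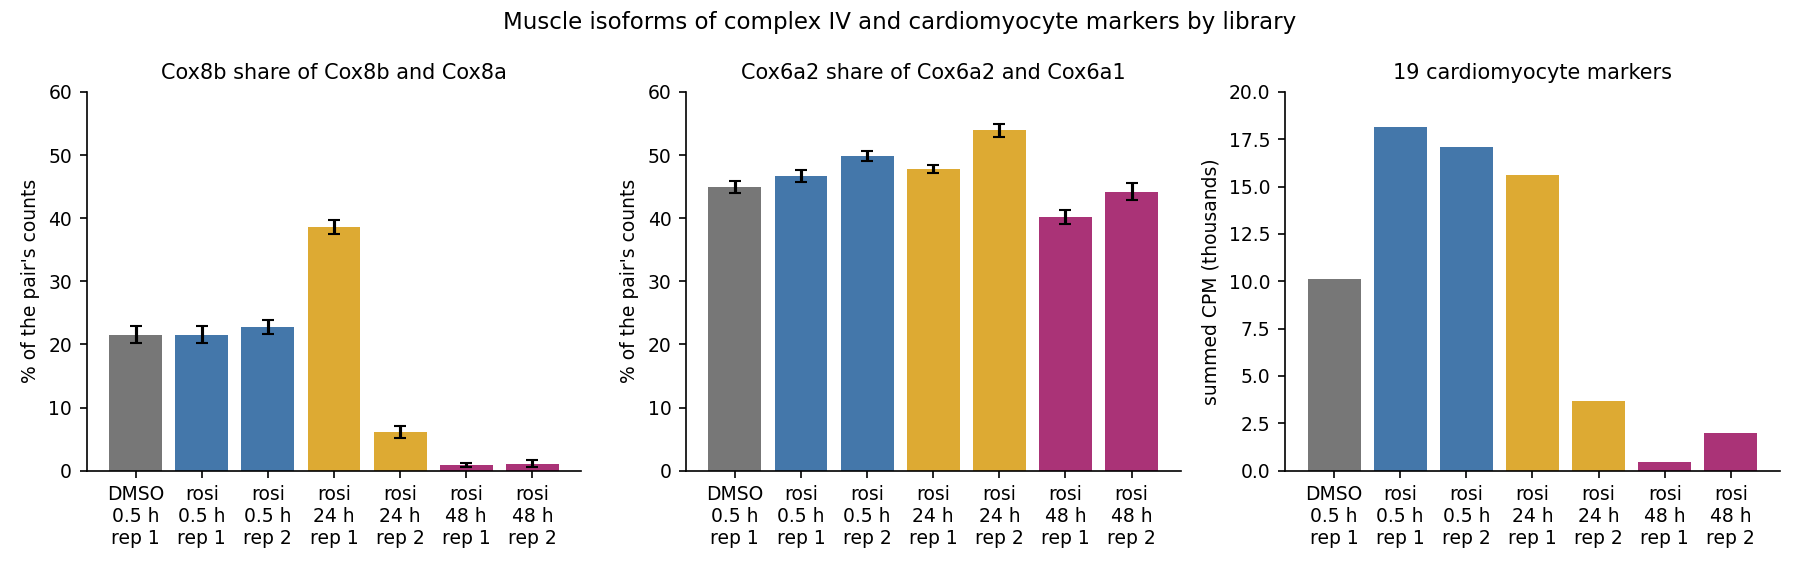
Share of the muscle isoforms Cox8b and Cox6a2 in the counts of their isoform pairs, in percent with 95% exact binomial intervals, and summed CPM of 19 cardiomyocyte markers, for each library. Bars are single libraries, coloured by group. The Cox8b share lies between 21.6 and 22.7% in the 3 libraries of 0.5 h and at 0.890 and 1.09% at 48 h, where the markers stand at 447 and 1980 CPM and the Cox6a2 share is 40.2 and 44.2%.

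Cox4i2 and Ndufa4l2 are paralogs linked to low oxygen. Over the 7 libraries Cox4i2 ranged from 2.34 to 10.8 CPM and Ndufa4l2 from 0.264 to 4.49 CPM. Ndufa4 is now counted as a subunit of complex IV, but its symbol carries the complex I prefix and it was placed here in complex I. Results per complex were not repeated with Ndufa4 in complex IV. Its level was 219 CPM in DMSO, 229 and 281 CPM at 0.5 h, 454 and 129 CPM at 24 h and 135 and 93.7 CPM at 48 h. The log2 fold change of 48 h against 0.5 h was -1.16 ± 0.54 (edgeR adjusted p = 0.260). Cox7a2, whose muscle partner Cox7a1 did not meet the count rule, was at 31.9, 32.0 and 45.7 CPM in the 0.5 h libraries and 24.1 and 27.5 CPM at 48 h (-0.59 ± 0.57).

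The contrast of 24 h with 0.5 h covers the first day of exposure. The 80 nuclear genes had a median log2 fold change of 0.47 with 70 positive, the 12 mitochondrially encoded genes a median of -0.21 with 3 positive, and all genes -0.04. By edgeR 0 of 92 subunits passed, against 0.0958% of all genes. At an unadjusted p under 0.05 there were 3 higher and 2 lower, against 6.27% and 9.29% of all genes, and DESeq2 called 0, against 7.74%. The 5 were Cox7a2l, Ndufa5 and Ndufa6 on the higher side and Mt-nd4l and Mt-atp8 on the lower side. Fold changes of nuclear genes ran in complex I from -0.06 (Ndufv3) to 1.84 (its copy), in complex II from -0.09 (Sdha) to 0.32 (Sdhd), in complex III from -0.29 (Uqcrc2) to 0.81 (the copy of Uqcrb), in complex IV from -0.09 (Cox4i2) to 0.87 (Cox7a2l) and in complex V from -0.52 (Atp5sl) to 0.99 (Atp5h).

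Behind these medians were 2 unlike libraries. In replicate 1 of 24 h, 78 of 80 nuclear and 9 of 12 mitochondrially encoded genes were above both rosiglitazone libraries of 0.5 h, against 38.1% of all genes. In replicate 2, 58 nuclear and all 12 mitochondrially encoded genes were below both, against 44.8% of all genes. Replicate 1 exceeded replicate 2 for all 92 subunits, against 7775 of the 15655 genes tested. The median ratio was 2.55 for nuclear genes, 5.70 for mitochondrially encoded genes, 4.35 for the cardiomyocyte markers and 1.0 for all genes tested. Whether the subunits and the markers share a cause for this was not tested.

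Accordingly the direction of the 24 h comparison turned with the library used. Without replicate 1 of 24 h the median was -0.42 for nuclear and -1.92 for mitochondrially encoded genes, and 11 subunits were called, 3 nuclear and 8 mitochondrially encoded, all lower, against 7.05% of all genes. Without replicate 2 the medians were 1.00 and 0.55, and 5 nuclear subunits were called, all higher, against 3.18% of all genes. In these fits the lone 24 h library is assumed to vary like the other groups. In both 24 h libraries alike, 10 nuclear genes, named here after their values were seen, were above both rosiglitazone libraries of 0.5 h: Cox7a2l and Cox5a of complex IV, Ndufa5, Ndufa6, Ndufb2, Ndufb7, Ndufb9, Ndufs4 and Ndufs7 of complex I, and Atp5s. Mt-nd4l, Mt-nd5, Mt-atp8 and the nuclear Atp5sl were below both. Across all genes the shares were 20.6% above and 29.3% below.

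From 24 to 48 h, 77 of 80 nuclear and 12 of 12 mitochondrially encoded genes had negative fold changes, with medians of -0.65 and -1.63 against -0.03 for all genes. By edgeR 0 subunits passed, as did 0% of all genes. At an unadjusted p under 0.05 there were 11 subunits, all lower, against 5.51% of all genes, and DESeq2 called 1, Cox8b, against 3.14% of all genes. Without replicate 1 of 24 h the medians were 0.17 and -0.10 with 0 subunits called, and without replicate 2 they were -1.18 and -2.465 with 26 called, against 3.3% of all genes. The lowest log2 fold changes of nuclear genes were those of Cox8b (-5.60 ± 1.27), the copy of Ndufv3 (-3.14 ± 2.32), Atp5g1 (-1.48 ± 0.51), the copy of Uqcrb (-1.22 ± 0.72) and Sdhd (-0.78 ± 0.44) in complexes IV, I, V, III and II. The highest were Cox7a2l (0.52 ± 0.30), Atp5sl (0.09 ± 0.34), Ndufb3 (-0.03 ± 0.44), Uqcrfs1 (-0.25 ± 0.44) and Sdhb (-0.39 ± 0.30). The comparisons of 24 h with 0.5 h and of 48 h with 24 h share the 24 h libraries.

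The 2 genomes also differed between the libraries of one time. At 48 h, 9 of 80 nuclear genes were higher in replicate 1 than in replicate 2, with a median ratio of 0.690, while 11 of 12 mitochondrially encoded genes were higher in replicate 1, with a median ratio of 1.68. Among the rosiglitazone libraries of 0.5 h, 1 of 80 nuclear genes was higher in replicate 1 (median ratio 0.762), against 10 of 12 mitochondrially encoded genes (1.16). Of all 15655 genes tested, 7508 were higher in replicate 1 at 48 h and 7838 at 0.5 h, each with a median ratio of 1.0. Of the 19 cardiomyocyte markers, 0 were higher in replicate 1 at 48 h and 10 at 0.5 h.

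Only the 0.5 h groups allow drug and vehicle to be compared at equal time. Of the nuclear genes 77 of 80 had a positive fold change, with a median of 0.25, while the mitochondrially encoded genes had a median of -0.02 with 4 of 12 positive, and all genes a median of 0.03. By edgeR 0 of 92 subunits passed, as did 0% of all genes. At an unadjusted p under 0.05 there were 0 subunits, against 0.594% of all genes, and DESeq2 called 0, against 0.0128%. In 51 nuclear genes both rosiglitazone libraries were above the DMSO library, against 31.7% of all genes. The median of the nuclear genes was 0.04 without rosiglitazone 0.5 h replicate 2 and 0.41 without replicate 1.

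The nuclear extremes at 0.5 h were in each complex small or rested on low counts. In complex I they were the copy of Ndufv3 (-1.46 ± 2.46) and Ndufa4l2 (1.74 ± 1.99), both near or below 1 CPM. In complex II they were Sdhd (0.01) and Sdhb (0.37), in complex III Uqcrc2 (0.13) and the copy of Uqcrb (0.98), in complex IV Cox7c (0.12) and Cox6b2 (0.75), the testis isoform of COX6B, and in complex V Atp5s (-0.15) and Atp5i (0.47). The mitochondrially encoded genes ran from -0.29 (Mt-nd2) to 0.22 (Mt-co1). In the same comparison 18 of 19 cardiomyocyte markers had a positive fold change (median 0.75) and all 12 macrophage markers a negative one (median -1.56). The macrophage markers summed to 1032 CPM in DMSO and to 306 and 411 CPM with rosiglitazone. All 6 red blood cell markers had positive fold changes without overlap (median 1.39), with a sum of 83.7 CPM in DMSO and of 153 and 281 CPM with rosiglitazone. The part of cell composition in the nuclear median was not tested.

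Other genes of the pathway were taken from lists of names. Of 46 assembly factors tested, 1 passed in the comparison of 48 h with 0.5 h, where 6.6% of all genes were called, 1.84% higher and 4.77% lower: Cox17, a copper chaperone for complex IV, was at 29.7 CPM in DMSO, 34.8 and 48.0 CPM at 0.5 h, 123 and 93.0 CPM at 24 h and 103 and 185 CPM at 48 h (log2 fold change 1.80 ± 0.37, edgeR adjusted p = 0.0356). The list had a median of 0.31, with 33 positive. Sdhaf3, an assembly factor of complex II, was next by p (2.27 ± 0.59, edgeR adjusted p = 0.0653).

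Among 5 tested respiratory genes with other names, 1 passed, against 6.6% of all genes. Atpif1, which encodes the inhibitor of the ATP synthase's reverse reaction, was at 149 CPM in DMSO, 164 and 209 CPM at 0.5 h, 558 and 384 CPM at 24 h and 487 and 875 CPM at 48 h (log2 fold change 1.87 ± 0.38, edgeR adjusted p = 0.0346). Each later library was above all 3 libraries of 0.5 h. Cyc1, cytochrome c1 of complex III, had -0.41 ± 0.33, and Coq10a, a coenzyme Q binding protein, 0.93 ± 0.35, and neither passed.

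The machinery that copies mitochondrial DNA and makes and processes its RNA had a median of 0.25 over 29 genes at 48 h against 0.5 h, with 21 positive, 8 negative (the lowest at -2.36) and 1 called, against 6.6% of all genes. That gene was Peo1, the Twinkle helicase of mitochondrial DNA, at 30.5 CPM in DMSO, 30.4 and 35.6 CPM at 0.5 h, 85.9 and 70.3 CPM at 24 h and 71.5 and 94.4 CPM at 48 h (1.33 ± 0.29, edgeR adjusted p = 0.0419). Mterf3, a regulator of mitochondrial transcription and translation, was next by p (0.95, edgeR adjusted p = 0.0904). Tfam, which packages mitochondrial DNA and starts its transcription, was at 61.6 CPM in DMSO, 69.1 and 91.7 CPM at 0.5 h, 129 and 112 CPM at 24 h and 148 and 140 CPM at 48 h (0.84 ± 0.26, edgeR adjusted p = 0.107). Polrmt, the mitochondrial RNA polymerase, had 0.69 ± 0.50, and Lrpprc, which stabilises mitochondrial messenger RNAs, 0.93 ± 0.28 (edgeR adjusted p = 0.466 and 0.0971).

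Of 14 transcriptional regulators of the pathway, 2 passed, both lower, against 4.77% of all genes. Ppargc1a, the coactivator PGC-1α, was at 12.5 CPM in DMSO, 14.8 and 20.8 CPM at 0.5 h, 4.23 and 2.27 CPM at 24 h and 1.89 and 1.83 CPM at 48 h (-3.26 ± 0.56, edgeR adjusted p = 0.0212). Esrrg, an orphan nuclear receptor of oxidative muscle, was at 53.5 CPM in DMSO, 69.7 and 67.2 CPM at 0.5 h, 82.9 and 52.1 CPM at 24 h and 3.74 and 16.3 CPM at 48 h (-2.80 ± 0.65, edgeR adjusted p = 0.0484). The related receptor Esrra was higher in each later library (33.4 CPM in DMSO, 41.0 and 48.4 CPM at 0.5 h, 86.1 and 77.2 CPM at 24 h, 101 and 78.9 CPM at 48 h), with an edgeR adjusted p of 0.0744. Nrf1, a factor that binds promoters of many nuclear subunit genes, had -0.05 ± 0.29.

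The calls of these 5 pathway genes depended on single libraries. Without any 1 rosiglitazone library of 0.5 or 48 h, the edgeR adjusted p ranged from 0.0838 to 0.26 for Cox17, from 0.0849 to 0.263 for Atpif1, from 0.121 to 0.343 for Peo1 and from 0.0811 to 0.165 for Ppargc1a, so all 4 calls were lost. Esrrg kept its call without replicate 2 of 48 h (log2 fold change -4.18, edgeR adjusted p = 0.026) and lost it without any 1 of the other 6 libraries (adjusted p from 0.0605 to 0.213), with a log2 fold change of -2.07 without replicate 1 of 48 h. Its call was also lost with DESeq2's size factors, with no filter on low counts and with only the 2 groups compared (edgeR adjusted p = 0.051, 0.0537 and 0.0504).

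In 3 further lists 0 genes passed at 48 h against 0.5 h by edgeR. At an unadjusted p under 0.05, 8.85% of all genes were higher and 13.7% lower. The 12 genes of the tricarboxylic acid cycle, which feeds the chain with NADH and succinate, had a median of -0.45, with 4 genes lower at an unadjusted p under 0.05 and 0 higher. The lowest p belonged to Idh3g (-1.16 ± 0.32), a subunit of isocitrate dehydrogenase. Import and cristae genes had a median of 0.40 over 20 genes, with 4 higher and 0 lower at an unadjusted p under 0.05, led by the chaperonins Hspd1 (1.03 ± 0.26) and Hspe1 (1.13 ± 0.32). Mitochondrial ribosomal proteins, which translate the mitochondrially encoded subunits, had a median of 0.32 over 72 genes, with 52 positive, and 6 higher and 0 lower at an unadjusted p under 0.05, with Mrps18b (1.14 ± 0.30) and Mrpl55 (1.06 ± 0.31) at the lowest p.

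The deposited tables also list 24 entries of the rat mitochondrial genome record that carry no gene symbol, and the files do not say which RNA each one is. Summed over these entries the level was 8595 CPM in DMSO, 3381 and 3615 CPM at 0.5 h, 5384 and 4968 CPM at 24 h and 10372 and 6458 CPM at 48 h. In this sum both 48 h libraries were above both rosiglitazone libraries of 0.5 h, and the DMSO library lay among the 48 h values. Of the 24 entries 17 were at 0 in every library and 6 could be tested, of which 2 had positive and 4 negative fold changes for 48 h against 0.5 h (median -0.89), and by edgeR 0 passed, with 2 higher and 0 lower at an unadjusted p under 0.05. The 2 positive ones hold nearly all of the sum: one was at 2625 and 2737 CPM at 0.5 h and 8235 and 5081 CPM at 48 h (1.31 ± 0.34), the other at 731 and 857 CPM and then at 2132 and 1361 CPM (1.14 ± 0.33).

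The authors' deposited table for 0.5 h calls 5 nuclear subunits higher and 1 mitochondrially encoded subunit lower (adjusted p under 0.05), where it calls 11% of its genes. For 24 h against 0.5 h the authors' deposited table calls 14 nuclear subunits higher and 3 mitochondrially encoded ones lower, with 39% of genes called. For 48 h against 24 h the authors' deposited table calls 1 nuclear subunit higher and 10 lower, and 5 mitochondrially encoded ones lower, with 16.5% of genes called. In the authors' deposited table Cox7a2l has a log2 fold change of 0.88 for 24 h against 0.5 h (adjusted p = 7.7e-05) and Cox8b one of -2.96 for 48 h against 24 h (adjusted p = 8.02e-07). These results rest on the same libraries as the fits above, so they are no independent check. The authors' counts list the 2 splits of each library separately. Whether their test treated splits as separate samples is not given in the sources used here. If it did, the adjusted p-values would be too small. On the summed splits DESeq2, fitted over all 4 groups at once, called 0.0128, 7.74 and 3.14% of all genes in the 3 comparisons. The groups and filter of the authors' fit may differ as well, so the gap between these shares cannot be put down to the splits.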

How the data were processed

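Directional RNA-seq libraries of 14 deposited samples were used. They are 7 libraries deposited as 2 splits each; the counts of paired splits did not differ beyond sampling noise in a chi-square test (statistic over its degrees of freedom between 0.963 and 1.015, lowest p = 0.112), and their sum was counted as 1 sample. Per the submitters' processing notes, FastQC 0.11.5, cutadapt 1.11, HTSeq and DESeq2 were used, with the builds Rnor_6.0 and hg19; aligner and strand setting: not given in the sources used here. The authors deposited raw read counts per gene, and beside them log2 fold changes and adjusted p-values of 3 comparisons per the file headers. The 460 repeated rows of the 33005 were dropped, which left 32545 genes.

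Computed here were CPM after TMM scaling and edgeR's quasi-likelihood test (edgeR 4.0.16, limma 3.58.1, R 4.3.3) over 4 groups and 15655 genes left by filterByExpr, with 3 residual degrees of freedom and Benjamini-Hochberg adjustment over all genes. The SE of a log2 fold change is its absolute value divided by the square root of the F statistic of that test. The test was first tried on simulated counts. Shares have exact binomial (Clopper-Pearson) 95% intervals. DESeq2 1.42.0, other scalings, filters, sample sets and single left-out libraries were alternatives. Of 222 names on 13 gene lists, 203 matched, 8 of them through a synonym of the RefSeq table for GRCr8. The subunits, lists and tests were chosen with earlier results of these data known. Subunits were named when mitochondrially encoded, past the threshold, members of an isoform pair, catalytic, or the extreme of a complex; from the lists, genes past the threshold, those with the 2 smallest p-values and 6 fixed regulators of the pathway were named. No sequence is printed, since none was used here.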

Additional observations from a re-analysis of the deposited data

How the results depend on the processing

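The number of subunits called for 48 h against 0.5 h, 2 by edgeR over the 4 groups, was 4 with no filter on low counts, 11 with DESeq2 and 16 with only the 2 groups compared, and ranged from 0 to 17 with single libraries left out. It was 0 without any 1 library of 0.5 h with rosiglitazone or of 48 h, 1 without the DMSO library, and 16 and 17 without replicate 1 and replicate 2 of 24 h. Among all genes, 6.6% were called by edgeR, 16.3% by DESeq2 and 19.3% with only the 2 groups. The median of the mitochondrially encoded genes in this comparison stayed between -2.25 and -1.79 and that of the nuclear ones between -0.54 and -0.03 with single libraries left out. For 24 h against 0.5 h the number called ranged from 0 to 11 with single libraries left out, and for 48 h against 24 h from 0 to 26, with 1 by DESeq2. The median of the mitochondrially encoded genes for rosiglitazone against DMSO ranged from -0.26 to 0.032 with single libraries left out. Replicate numbers were shared by the groups, deviations of same-numbered libraries correlated at -0.178, 0.095 and -0.242, and the main fit did not pair them. These correlations cover all genes tested, so they cannot show whether the subunits share a batch by number. In replicate 2 the mitochondrially encoded share was 52.1, 36.8 and 26.7% at 0.5, 24 and 48 h of rosiglitazone. In replicate 1 it was 60.95, 54.3 and 44.1%. With the replicate number as a block, the median of the mitochondrially encoded genes for rosiglitazone against DMSO was 0.484. For 48 h against 0.5 h 2 subunits were then called, Mt-atp8 and Mt-nd4l, against 2.93% of all genes. Cox7a2l had an edgeR adjusted p of 0.109. Under that block the 5 called pathway genes had adjusted p from 0.0513 (Ppargc1a) to 0.103 (Peo1).

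Without replicate 1 of 24 h the direction turned in the 26 single-gene results listed next, all from the 48 named subunits. The list does not hold every subunit that turned. Without that library the median of the nuclear genes turned from 0.47 to -0.42 for 24 h against 0.5 h. For 48 h against 24 h it turned from -0.65 to 0.17. The cause was not tested. For 24 h against 0.5 h the log2 fold changes ranged, with single libraries left out, from -0.292 to 1.33 for Atp5g1, -0.047 to 0.883 for Cox4i1, -0.515 to 1.39 for Cox6a1, -0.202 to 1.35 for Cox6a2, -0.546 to 1.25 for Cox7c, -2.501 to 1.639 for Cox8b, -1.68 to 0.943 for Mt-co2, -1.87 to 1.15 for Mt-nd6, -0.417 to 1.325 for Ndufa12 and -0.229 to 0.966 for Uqcrfs1. For 48 h against 24 h they ranged from -1.04 to 0.323 for Atp5h, -1.799 to 0.282 for Atp5i, -1.18 to 0.176 for Atp5s, -1.31 to 0.602 for Cox6a1, -1.815 to 0.117 for Cox7a2, -1.22 to 0.587 for Cox7c, -1.39 to 0.077 for Mt-atp8, -1.67 to 0.019 for Mt-co1, -2.096 to 0.392 for Mt-nd1, -2.41 to 0.709 for Mt-nd2, -2.586 to 0.447 for Mt-nd6, -4.065 to 0.684 for the copy of Ndufv3, -0.703 to 0.042 for Sdhb, -1.299 to 0.068 for Sdhd, -0.939 to 0.252 for Uqcr11 and -0.952 to 0.018 for Uqcrc1. The shares without Mt-co1 and without Cox7a2l were alternatives chosen after seeing the data. Without Mt-nd6, Mt-atp8 and Mt-nd4l, the mitochondrially encoded share was 59.3, 60.3 and 51.5% in the libraries of 0.5 h and 43.4 and 26.3% at 48 h. The shallowest library, 48 h replicate 2, limits low values most: 3 counts are 0.276 CPM there.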
